A study of Mus musculus with 2 samples.

Results

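The genes examined encode the replication-independent histone variants, the H2A, H3 and centromeric H3 proteins whose genes are expressed outside S phase as well as within it. The 9 genes were taken by symbol from the annotated genes of both libraries: H2afz, H2afv, H2afx, H2afy, H2afy2 and H2afj of the H2A family, and H3f3a, H3f3b and Cenpa of the H3 family. They are 9 of 43346 annotated genes. The measurements come from whole liver of B6NCrl mouse embryos of both sexes at day 13.5, without treatment, as 1 group of 2 libraries. The labels call the libraries biological replicates 1 and 2 from separate biosamples with the same donor entry, so each SD (n = 2) covers only the spread between the pair. With 1 group no condition could be compared and no p-value was computed.

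Histone variants replace canonical histones in nucleosomes without a need for DNA synthesis. H3.3 is placed at active genes by HIRA and at heterochromatin by ATRX and DAXX, Cenpa marks the centromere after loading by HJURP, and H2A.Z is exchanged at promoters by the SRCAP and EP400 complexes. H2A.X is phosphorylated around DNA breaks, and macroH2A carries a large macro domain outside the nucleosome. The midgestation liver is the main site of blood formation in the mouse embryo, so the tissue holds dividing red cell precursors beside hepatoblasts. The canonical, or replication-dependent, histone genes are transcribed in S phase, and most of their mRNAs end in a stem-loop in place of a poly(A) tail.

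Replicate 1 held 39182457 expected counts on annotated genes and replicate 2 held 37432977, and at a length of 2000 nt a count of 3 equals 0.0417 TPM in replicate 1 and 0.0464 TPM in replicate 2. TPM is the share of a transcript in its library, corrected for transcript length. The libraries carried the markers of liver and of red cells, with 5 of 5 hepatoblast genes between 11.03 and 6807 TPM and 5 of 5 erythroid genes between 121 and 140066 TPM. The 5 proliferation markers lay between 67.3 and 634 TPM. Heart markers reached 0.54 to 53.7 TPM, skeletal muscle markers 3.16 to 36.6 TPM and neuron markers 0.82 to 5.04 TPM. In whole tissue, fewer cells of a type and less RNA per cell cannot be told apart.

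Sequences that separate the H3.3 genes, the H2A.Z genes and the alternative exons of H2afy are shown first. They come from the GENCODE M21 transcripts, on the GRCm38 assembly. The coding sequences compared are those of H3f3a-205, H3f3b-201, H2afz-201 and H2afv-202. H3f3a-201, which held most of the H3f3a TPM, was not the transcript compared. H3f3a (minus strand, chr1:180811867-180811926) and H3f3b (minus strand, chr11:116023950-116024009) encode the same 136 residues of H3.3, yet 95 of their coding bases and 83 of their codons differ. In the first 60 coding bases, 13 differ and are given in capitals.
H3f3a: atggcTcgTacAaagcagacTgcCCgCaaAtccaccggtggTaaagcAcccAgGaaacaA
H3f3b: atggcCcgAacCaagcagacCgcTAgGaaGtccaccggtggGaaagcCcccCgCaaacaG
The same stretch of the processed pseudogene H3f3c (minus strand, chr2:119665977-119666036) differs from H3f3a at the 1 base in capitals.
H3f3c: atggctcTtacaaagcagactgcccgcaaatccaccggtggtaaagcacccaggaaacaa
H2afz (plus strand, chr3:137864694-137865189, 2 exons) and H2afv (minus strand, chr11:6439397-6444339, 2 exons) encode proteins of 128 residues of which 3 differ, with 80 coding bases apart. In their first 60 coding bases, 13 differ and are in capitals.
H2afz: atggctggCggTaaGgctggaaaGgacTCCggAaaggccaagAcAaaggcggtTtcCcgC
H2afv: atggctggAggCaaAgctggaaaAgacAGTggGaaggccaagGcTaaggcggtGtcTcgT
The gene H2afy makes 2 proteins by the choice between mutually exclusive exons. Both exons lie on the minus strand and are coding, the macroH2A1.1 exon at chr13:56088252-56088342 and the macroH2A1.2 exon at chr13:56089758-56089857. Capitals mark bases without an identical partner in the alignment of the pair.
macroH2A1.1 exon: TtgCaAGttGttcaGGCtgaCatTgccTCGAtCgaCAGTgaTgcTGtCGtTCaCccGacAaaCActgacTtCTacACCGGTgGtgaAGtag
macroH2A1.2 exon: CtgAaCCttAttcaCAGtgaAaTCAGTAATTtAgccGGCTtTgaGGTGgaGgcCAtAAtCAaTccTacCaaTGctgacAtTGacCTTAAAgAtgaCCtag

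All 9 variant genes were expressed. Each exceeded 1 TPM in both libraries, which 12183 of the 43346 annotated genes (28.1%) did. Their median was 187 ± 0.742 TPM (SD, n = 2), against 11.4 ± 0.933 TPM over those 12183 genes. Together they made 4634 TPM in replicate 1 and 5202 TPM in replicate 2, or 0.472% and 0.537% of the TPM of annotated genes. The 3 highest, H3f3a, H2afz and H3f3b, held 86.6% ± 1.00 of this sum.

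**Figure D1:**
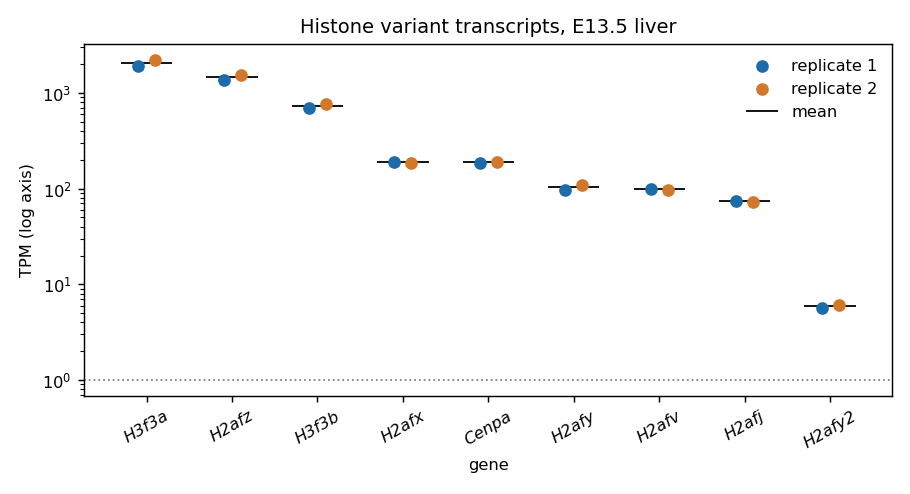
TPM of the 9 variant genes on a log axis, with a point for each replicate, a bar at the mean and a dotted line at 1 TPM. H3f3a and H2afz are highest in both libraries, and H2afy2, at 5.71 and 6.06 TPM, is lowest.

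Of the pair of genes for H3.3, H3f3b lay below H3f3a, the highest of the 9. H3f3b (ENSMUSG00000016559.10, chr11:116021912-116027962, minus strand) had 693 TPM in replicate 1 and 772 TPM in replicate 2, on 43495 and 42203 expected counts, and ranked 117 among the annotated genes. H3f3a (ENSMUSG00000060743.8, chr1:180800832-180813943, minus strand) had 1917 and 2213 TPM on 61111 and 66630 counts, and ranked 30. The H3f3b level was thus below the H3f3a level in both libraries, with no overlap. The log2 ratio of H3f3b over H3f3a was −1.49 ± 0.04 (SD, n = 2), a fold of 0.355 ± 0.00878, and H3f3a made 73.8% ± 0.478 of the 2797 ± 265 TPM of the pair. In expected counts, which are not corrected for length, the H3f3a share was 59.8% ± 1.98.

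Both H3.3 genes were read as several transcripts, and 1 led each gene. H3f3a-201 (888 nt, 4 exons) held 1384 and 1732 TPM, or 75.2% ± 4.32 of the gene, and H3f3a-204, a transcript of 481 nt with 357 coding nt, held 371 and 290 TPM. H3f3a-205, with a 3′ untranslated region of 2245 nt, held 131 and 171 TPM. This long form took 7.29% ± 0.629 of the gene by TPM and 23.1% ± 1.17 by counts. The coding sequence annotated for H3f3a-201 is 405 nt, against 408 nt for H3f3a-205 and for H3f3b-201. H3f3b-201 (1993 nt, 4 exons, 3′ untranslated region of 1446 nt) held 547 and 574 TPM, or 76.6% ± 3.19 of its gene. The processed transcript H3f3b-204 held 136 and 188 TPM.

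Part of the H3f3a sequence is shared with other quantified genes, at its own locus and elsewhere, and reads that fit several genes were divided by the authors' model. Of the 789 windows of 100 nt in H3f3a-201, 493 (62.5%) occur in the transcripts of 5 other quantified genes, against 59 of 1894 windows (3.12%) in H3f3b-201. Of the 493, 409 occur in Gm17275, a long noncoding gene that overlaps H3f3a on the other strand, 84 in the pseudogene H3f3a-ps2, 69 in H3f3c, 53 in Gm12657 and 8 in Gm8524, and a window can occur in several. The pseudogene H3f3c (chr2:119665626-119666036, minus strand) matches the H3f3a coding sequence at all but 7 of 411 nt and was given 418 and 540 TPM, on 4943 and 5731 counts. Its counts equal 8.09% and 8.60% of those of H3f3a, with posterior SDs of 127 and 139 counts, so the levels of both are less certain than that of H3f3b. The other copies were lower, H3f3a-ps2 (chromosome 16) at 12.1 and 9.73 TPM and H3f3a-ps1 (chromosome X) at 1.22 and 0.80 TPM. The antisense gene H3f3aos, which also overlaps H3f3a, and Gm17275 stood at 0.13 and 0.06 TPM and at 2.69 and 2.37 TPM. Whether counting used the strand was not given in the sources used here, so reads of overlapping antisense genes cannot be told apart from those of H3f3a.

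Cenpa, the centromeric H3 variant, was far below H3f3a in both libraries. The gene (ENSMUSG00000029177.5, chr5:30666777-30674830, plus strand) had 186 and 190.4 TPM on 8006 and 7386 counts, and ranked 619. The ratio of Cenpa to H3f3a was 0.0915 ± 0.00776 (SD, n = 2) and that of Cenpa to H3f3b 0.258 ± 0.0155. Its protein matches H3.3 at 58 of 129 aligned residues, and no window of 100 nt in Cenpa-205 occurs in another quantified gene. Cenpa-205, which encodes the full protein of 134 residues, held 98.1 and 106 TPM, or 54.1% ± 2.03 of the gene. Transcripts not annotated as protein-coding held 44.9% ± 2.09, chiefly Cenpa-202, annotated for nonsense-mediated decay, at 64.3 and 59.6 TPM. The other members with such transcripts had lower shares, with 24.3% ± 2.57 for H2afy, 23.3% ± 3.20 for H3f3b, 0.848% ± 0.215 for H3f3a and 0.406% ± 0.0447 for H2afz. Cenpa-205 and Cenpa-202 are 1354 and 1151 nt as quantified but 1466 and 1031 nt in GENCODE M21. Their types and coding lengths come from M21, so the coding and noncoding shares of Cenpa are less certain.

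Among H2A variants, H2afz was by far the most abundant. H2afz (ENSMUSG00000037894.9, chr3:137864487-137866922, plus strand), the main gene for H2A.Z, had 1369 and 1556 TPM on 49619 and 50209 counts, and ranked 45. H2afv (ENSMUSG00000041126.12, chr11:6427229-6444443, minus strand), the other H2A.Z gene, had 99.9 and 96.5 TPM on 2973 and 2495 counts. The log2 ratio of H2afz over H2afv was 3.89 ± 0.17 (SD, n = 2), or 14.9-fold ± 1.70, and H2afz made 93.7% ± 0.677 of the TPM of the pair. In both libraries H2afz lay above H2afv, but the ratio depends on the transcripts used for H2afv. H2afv-201 (519 nt), with 270 coding nt, held 67.1 and 67.0 TPM, and H2afv-202 (1633 nt), which encodes all 128 residues, held 32.8 and 29.5 TPM. In expected counts, which are not corrected for length, the order was reversed. H2afv-202 held 64.1% and 61.7% of the H2afv counts and H2afv-201 held 35.9% and 38.3%. Over the transcripts that encode the full-length proteins the log2 ratio was 5.45.

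H2afz also has a copy that its reads fit. H2afz-201 (1069 nt, 5 exons) held 93.5% ± 2.16 of the gene, and H2afz-207 held 61.1 and 118 TPM. Of the 970 windows of 100 nt in H2afz-201, 570 (58.8%) occur in other quantified genes, all 570 of them in Tmcc1 and 288 in Gm8203. Tmcc1 stood at 1.11 and 1.3 TPM. The processed pseudogene Gm8203, which lies within Tmcc1 on the other strand (chr6:116173737-116174123, plus strand), is identical to H2afz over 387 nt and was given 194 and 181 TPM, on 2118 and 1774 counts. The posterior SD was 116 and 92.0 counts for each of the 2 genes. No window of H2afv-201 is shared.

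H2afy, the gene for macroH2A1, lay far above the second macroH2A gene. H2afy (ENSMUSG00000015937.10, chr13:56073619-56136361, minus strand) had 97.9 and 108 TPM on 6132 and 6242 counts. H2afy2 (ENSMUSG00000020086.6, chr10:61738665-61784147, minus strand), which encodes macroH2A2, had 5.71 and 6.06 TPM on 449 and 428 counts, the lowest level of the 9 genes. The log2 ratio of H2afy over H2afy2 was 4.10 ± 0.04 (SD, n = 2), or 17.5-fold ± 0.463. The level of H2afy2 lies above that of 34.0% of the expressed genes and the level of H2afy above that of 90.4%. The 2 proteins have 372 residues each, of which 249 (66.9%) are identical. Of the H2afy2 windows, 136 of 2076 (6.55%) are shared, all with Aifm2, which overlaps the end of H2afy2 on the other strand and stood at 2.67 and 2.81 TPM. The macroH2A pseudogene H2afy3 (chromosome 15) had 0.13 and 0.15 TPM.

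Most H2afy transcripts held the macroH2A1.2 exon shown above. H2afy-201, the full-length macroH2A1.2 form (2046 nt, 9 exons), had 68.2 and 76.7 TPM, or 70.4% ± 1.03 of the gene. H2afy-202, the macroH2A1.1 form, whose macro domain is the one known to bind ADP-ribose, had 4.16 and 6.93 TPM on 306 and 456 counts with posterior SDs of 39.7 and 50.7. Over transcripts that hold either exon, the macroH2A1.1 share was 5.64% in replicate 1 and 8.23% in replicate 2 (6.93% ± 1.83, SD, n = 2). The macroH2A1.2 transcripts were therefore 16.7-fold and 11.2-fold above the macroH2A1.1 transcript. The macroH2A1.2 exon has 100 nt and its protein 372 residues, against 91 nt and 369 residues for macroH2A1.1. In the alignment of the pair, 48 of 91 bases (52.7%) are identical, and 8 of 30 aligned residues.

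A further 23.3% ± 1.96 of H2afy TPM lay in transcripts with neither exon. The processed transcript H2afy-204 (889 nt, 6 exons) held 21.5 and 21.4 TPM, 20.9% ± 1.47 of the gene, and was second to H2afy-201. The retained-intron transcripts H2afy-203 and H2afy-206, of which H2afy-206 holds the macroH2A1.2 exon, stood at 2.19 and 1.48 TPM and at 1.38 and 0.59 TPM. H2afy-205 stood at 0.52 and 0.65 TPM, H2afy-207 at 0 and 0.11 TPM, and H2afy-208 was listed at 0 in both libraries. The length of H2afy-202 is 2037 nt in the deposited tables and 1933 nt in GENCODE M21, so its annotation changed between the releases. Of the 38 transcripts of the 9 genes, 34 have the same length in both. The antisense gene Gm47071 overlaps H2afy in GENCODE M21 and was not used here.

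**Figure D2:**
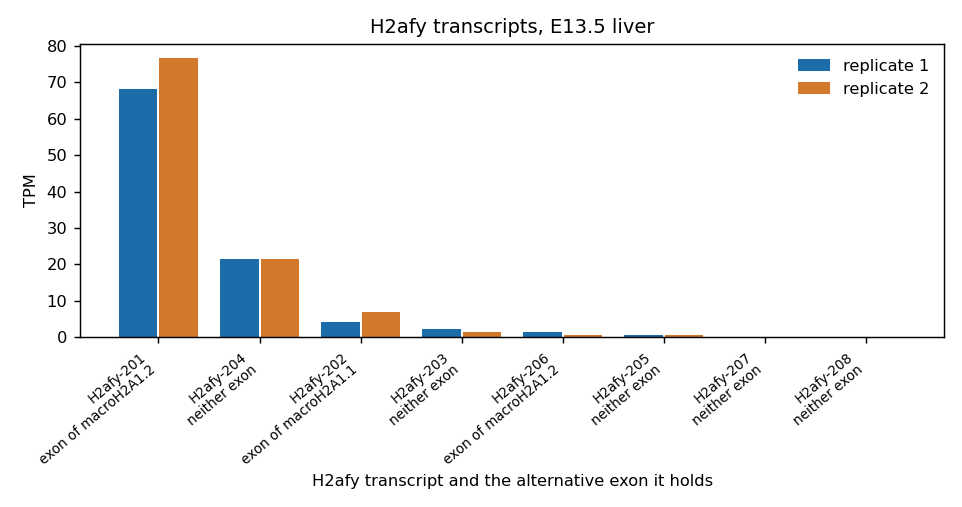
TPM of the 8 annotated H2afy transcripts, with 1 bar for each replicate, labelled by the alternative exon that each transcript holds. H2afy-201 with the macroH2A1.2 exon is highest in both libraries, and H2afy-202 with the macroH2A1.1 exon stands at 4.16 and 6.93 TPM.

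H2afx and H2afj are the variants with a single transcript and a single exon in the deposited annotation. H2afx (ENSMUSG00000049932.3, chr9:44334694-44336077, plus strand), whose protein carries the tail phosphorylated at DNA breaks, had 190.1 and 187 TPM on 9252 and 8176 counts. H2afj (ENSMUSG00000060032.5, chr6:136808244-136810074, plus strand), a variant close in sequence to canonical H2A, had 75.0 and 73.3 TPM on 4907 and 4305 counts. The ratio of H2afx over H2afj was 2.54-fold ± 0.0130 (SD, n = 2). No window of 100 nt in H2afj-201 occurs in another quantified gene, and 18 of 1285 windows (1.401%) of H2afx-201 do. H2afx and H2afj differ at 11 of 129 aligned residues, and H2afj differs from canonical Hist1h2ap at 6 of 129.

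In the order of levels, most neighbours were separated by more than their spread. The order by mean TPM was H3f3a, H2afz, H3f3b, H2afx, Cenpa, H2afy, H2afv, H2afj and H2afy2. The replicate values of H2afx and Cenpa overlapped, at 189 ± 2.15 and 188 ± 3.10 TPM, and so did those of H2afy and H2afv, at 103 ± 7.05 and 98.2 ± 2.40 TPM. The replicate values of the other neighbours did not overlap.

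The H2afx transcript holds a match to the stem-loop motif of canonical histone mRNAs. The motif is made of the stem GGCNCT, the loop TTTN and the opposite stem AGNGCC in a row (N is any base). It was searched on the sense strand only. In H2afx it occurs 46 nt after the stop codon and 822 nt before the transcript end, in the 3′ untranslated region. The motif is in capitals, within the printed 22 nt at chr9:44335237-44335258 (plus strand).
H2afx stem-loop: aaaGGCCCTTTTAAGGGCCacc
It was found in 1 of the 9 variant genes, in 19 of 32 canonical H2A and H3 genes (59.4%) and in 44 of 42442 genes (0.104%). Of the 32 canonical genes, 2 have no coding sequence and 9 have fewer than 16 nt annotated after the stop codon, too short for the motif, and 19 of the remaining 21 hold it. The poly(A) signal AATAAA, searched on the same strand in the last 50 nt of each transcript, was found in 8 of the 9 variants, in 3 of the 32 canonical genes (9.38%) and in 17798 of 42442 genes (41.9%). In the 9 short annotations that window lies mostly in coding sequence. H2afx was the variant without a match. All 32 canonical genes have a single exon, whereas 7 of the 9 variants have several.

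Set against the canonical genes of the same families by TPM, the variants made most of the H3 transcripts but not most of the H2A transcripts. H3f3a and H3f3b together had 2610 TPM in replicate 1 and 2985 TPM in replicate 2, against 424 and 284 TPM for the 12 replication-dependent H3 genes. The share of H3f3a and H3f3b was 86.0% and 91.3% (88.7% ± 3.75, SD, n = 2), and 95.4% ± 1.75 in expected counts. Cenpa was counted neither among the H3 variants nor in the family total for this share. The 3 highest canonical H3 genes were Hist1h3i at 153 ± 17.5 TPM, Hist2h3b at 111 ± 44.2 TPM and Hist1h3d at 22.6 ± 7.63 TPM. The H3.3 protein differs from that of Hist1h3i at 5 of 136 residues.

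In the H2A family, the 6 variants had 1838 and 2026 TPM, against 5490 and 4858 TPM for the 20 replication-dependent genes. By name these 20 include Hist1h2aa, which is also in the germline list below and was listed at 0, and Hist1h2aj and Hist1h2al, which GENCODE M21 types as pseudogenes, at 0 and 13.9 TPM and at 1.08 and 1.47 TPM. The variants thus made 25.1% and 29.4% of H2A transcripts (27.3% ± 3.08, SD, n = 2). A single canonical gene, Hist1h2ap (482 nt), held 65.6% ± 1.28 of the family, and without it the variant share was 79.1% ± 5.997. In expected counts the variant share was 47.8% in replicate 1 and 53.0% in replicate 2 (50.4% ± 3.66). Of the H2A variant TPM, H2afz took 75.6% ± 1.60, H2afx 9.79% ± 0.786, H2afy 5.33% ± 0.00211, H2afv 5.10% ± 0.475, H2afj 3.85% ± 0.328 and H2afy2 0.305% ± 0.0082. After Hist1h2ap the next canonical genes were Hist1h2ae at 198 ± 36.2 TPM and Hist2h2aa2 at 59.7 ± 20.0 TPM. Many canonical genes are near-identical, so their single levels are less certain than their sums. How cDNA synthesis was primed was not given in the sources used here, and its part in the shares of canonical mRNAs without a poly(A) tail was not tested. Of the 32 canonical genes of both families, 9 have fewer than 16 nt annotated after the stop codon. Hist1h3i has no annotated untranslated region. The part of these short annotations in the H3 and H2A shares was not tested.

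**Figure D3:**
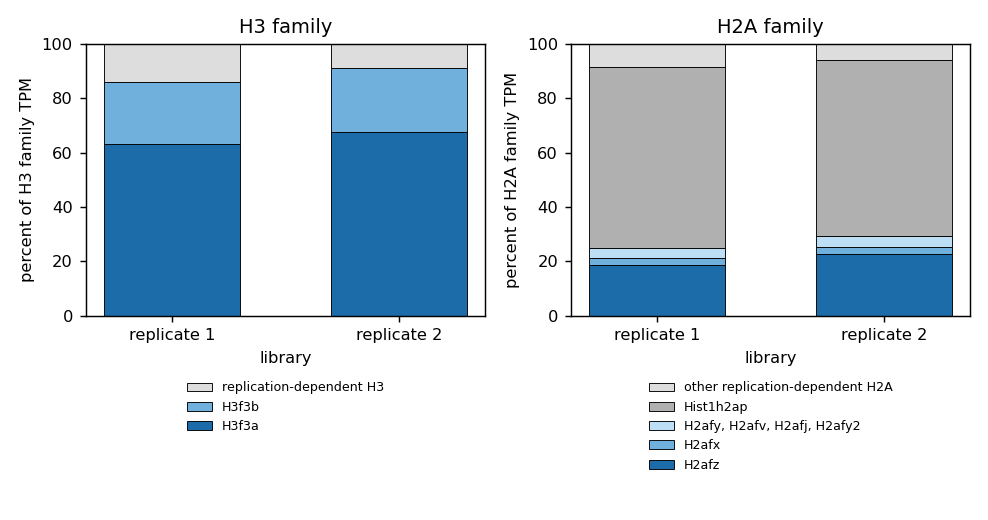
Shares of the H3 family TPM (left) and of the H2A family TPM (right) in each replicate, with variants in blue and replication-dependent genes in grey. The variants fill 86.0% and 91.3% of the H3 bars and 25.1% and 29.4% of the H2A bars. Cenpa is left out of the H3 bars.

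The replicates were compared gene by gene. Expected counts were scaled by TMM, a normalisation that takes most genes as equal, and the 15997 genes whose mean count reached 10 were compared. None of the 9 variants was past 1.5-fold, whereas 8.16% of all genes compared were and 1.33% of those with a mean count of at least 100. All 9 variants have more counts than that, and with 9 genes a count of 0 lies near either share. Scaled by spike-in counts instead, 8 of the 9 variants and 60.2% of all genes were past it. The median log2 ratio of replicate 2 over replicate 1 was −0.07 over the 9 genes and −0.0006 over all genes, and the median absolute log2 ratio was 0.12 over the 9 genes and 0.15 over all genes. The highest ratio was that of H3f3a, at 1.09-fold with an exact 95% counting interval of 1.078 to 1.102. The lowest was that of H2afv, at 0.839-fold with an interval of 0.795 to 0.885. The counting interval held 1 for 3 of the 9 genes, H2afz, H2afy and H2afy2. The intervals cover counting error only.

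The direction of these small differences depended on the scaling. With TMM, 3 of the 9 variants and 49.7% of all genes compared were higher in replicate 2, against 0 variants and 2.95% of genes with the spike-in counts and 6 variants and 72.2% of genes with TPM. The spike-in scaling moved the median of all genes to −0.64 and TPM moved it to 0.14. A change of the count scaling shifts all genes alike, so the place of the variants among the other genes cannot change with it.

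The canonical histone genes differed more between the libraries. Of the 12 replication-dependent H3 genes, 11 were lower in replicate 2, with a median log2 ratio of −0.91. Of the 18 replication-dependent H2A genes with enough counts, 16 were lower, with a median of −0.85. With the same TMM scaling, 49.7% of all genes compared were higher in replicate 2. Hist1h2ap, which held most of the H2A family, had 70656 and 57990 counts. Many of these genes are near-identical, so their single ratios are less certain than the ratios of the sums. The summed counts of replication-dependent H3 genes had a log2 ratio of −0.78, against 0.06 for H3f3a and H3f3b together. For H2A, the log2 ratio was −0.33 for the replication-dependent genes and −0.03 for the 6 variants. Both variant sums lie within the shifts between scalings given above, so their signs depend on the scaling. Of the markers, 1 of 5 erythroid genes was higher in replicate 2 (median log2 ratio −0.24), 0 of 3 skeletal muscle genes (−0.41), 1 of 3 neuron genes (−0.48), 3 of 5 hepatoblast genes (0.07), 3 of 5 proliferation genes (0.06) and 4 of 4 heart genes (1.52). The summed level of the erythroid markers was 199160 TPM in replicate 1 and 177930.4 TPM in replicate 2, that of the skeletal muscle markers 55.1 and 44.4 TPM, and that of the neuron markers 7.59 and 5.11 TPM. It was 13425 and 15153 TPM for the hepatoblast markers, 1482 and 1686 TPM for the proliferation markers and 36.3 and 87.0 TPM for the heart markers. No marker of the 6 lists was at 0. Their part in the ratios of the histone genes was not tested.

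**Figure D4:**
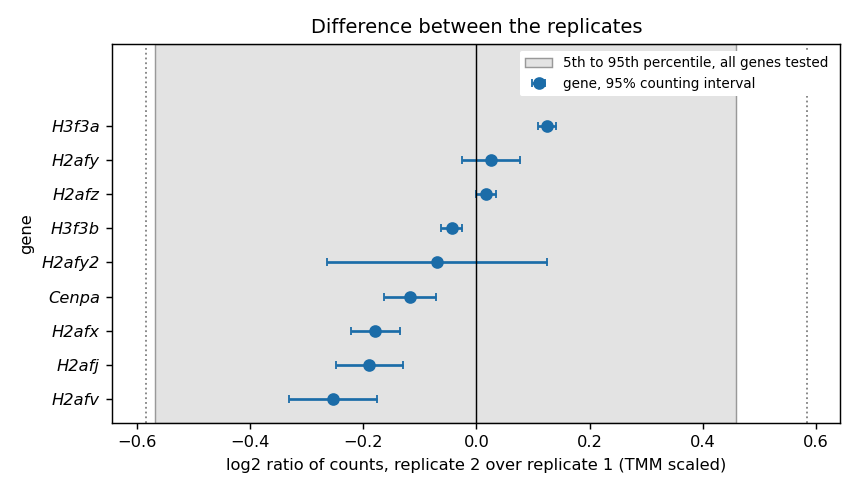
Log2 ratio of TMM-scaled counts, replicate 2 over replicate 1, for the 9 variant genes (points) with exact 95% counting intervals (bars). The grey band is the 5th to 95th percentile of all 15997 genes, −0.57 to 0.46, the dotted lines stand at 1.5-fold, and all 9 points lie inside the band.

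The factors that place the variants were expressed as well. All 10 genes of the H3.3 chaperone list exceeded 1 TPM in each library, as did 28.1% of all annotated genes. The same share of 28.1% applies beside the list counts that follow. The list median was 38.9 ± 3.08 TPM (SD, n = 2), against 11.4 ± 0.933 TPM over all genes above 1 TPM. Dek, a chromatin protein that binds H3.3, was highest at 468 ± 42.9 TPM, followed by the H3-H4 chaperones Asf1b at 108 ± 6.88 TPM and Nasp at 83.4 ± 13.2 TPM. The HIRA complex was lower. Hira stood at 5.83 ± 0.481, Ubn1 at 6.98 ± 0.403, Ubn2 at 4.19 ± 0.332 and Cabin1 at 6.80 ± 0.601 TPM. Each of these lay below the median of 11.4 TPM over all genes above 1 TPM, unlike the list median. The ATRX-DAXX pair stood at 54.2 ± 5.45 TPM for Atrx and 24.1 ± 1.31 TPM for Daxx.

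All 16 genes of the Cenpa list also exceeded 1 TPM, with a median of 37.6 ± 5.22 TPM. The highest were the general chaperone Npm1 at 888 ± 42.1 TPM and the histone-binding proteins Rbbp4 at 281 ± 30.6 and Rbbp7 at 252 ± 20.2 TPM. Hjurp, the loader of Cenpa, stood at 58.6 ± 5.31 TPM. Mis18a and Oip5, which license loading, stood at 49.5 ± 5.56 and 41.8 ± 4.72 TPM.

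The 20 genes of H2A.Z exchange all exceeded 1 TPM, with a median of 30.6 ± 2.78 TPM. Anp32e, which removes H2A.Z, was highest at 171 ± 34.5 TPM, followed by Morf4l1, a subunit of the TIP60 complex, at 149 ± 16.6 TPM and the chaperone Nap1l1 at 145 ± 18.99 TPM. The motor subunits were lower, with Srcap at 20.5 ± 1.03, Ep400 at 16 ± 2.26 and Ino80 at 1.82 ± 0.0212 TPM.

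Of 15 genes of H2A.X damage signalling, 12 exceeded 1 TPM, with a list median of 12.7 ± 2.50 TPM. The checkpoint kinases Chek2 at 30.4 ± 1.41 and Chek1 at 25.3 ± 3.12 TPM and the ubiquitin ligase Rnf8 at 30.3 ± 0.12 TPM were highest. The 3 below 1 TPM were the phosphatases Eya1, Eya2 and Eya4. Of 11 splicing factors and ADP-ribose enzymes listed for macroH2A, 10 exceeded 1 TPM and Rbfox1 did not. The median over all 11 was 8.84 ± 0.191 TPM, below the 11.4 ± 0.933 TPM over all genes above 1 TPM. The helicase Ddx5 stood at 127 ± 12.7, the splicing factor Mbnl1 at 122 ± 19.3 and Parp1, which makes ADP-ribose chains, at 73.2 ± 5.66 TPM. Qk, a splicing factor known from human cells to favour the macroH2A1.1 exon, stood at 8.55 ± 0.212 TPM.

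Of the general nucleosome chaperones, 7 of the 10 with an entry exceeded 1 TPM, and the median over all 10 was 20.3 ± 1.46 TPM. Set was highest at 294 ± 11.8 TPM, followed by the FACT subunit Ssrp1 at 185 ± 9.38 and the CAF-1 subunit Chaf1b at 55.6 ± 4.62 TPM. The 3 below 1 TPM were Nap1l2, Nap1l3 and Nap1l5. Of 12 germline and tissue-restricted variants, 11 stayed below 1 TPM, among them the testis variant Hist1h2ba at 0.13 ± 0.0141 TPM, the oocyte linker histone H1foo at 0 and 0.03 TPM and the H2A.B genes H2afb1, H2afb2 and H2afb3, which were listed at 0. The exception was H3f3c, described above with H3f3a.

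**Figure D5:**
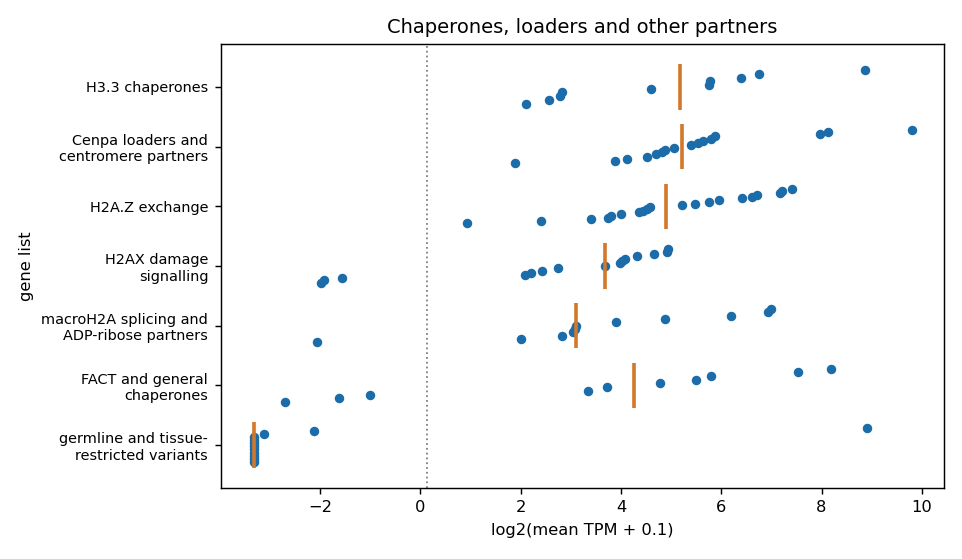
Mean level over the 2 replicates, as log2(TPM + 0.1), of each gene in 7 lists (points) with the list median (orange bars) and a dotted line at 1 TPM. The lists of H3.3 chaperones, Cenpa loaders and H2A.Z exchange lie wholly above 1 TPM, and the germline list lies below it except for H3f3c.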

How the data were processed

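Total RNA longer than 200 nt was measured in 2 libraries of 10 ng each with added spike-ins, per the labels. The deposited readme gives the build mm10 with GENCODE release M4; the aligner and the counting tool were not given in the sources used here. The expected counts are the authors' model estimates of reads per gene or transcript, per the file headers, with a posterior SD, a score of how certain the division of reads is. TPM was normalised by the authors within each library, the total covering 26248 transfer RNA entries and 96 spike-ins, and lengths were shortened by 99 nt. The deposited FPKM columns gave no printed value, and the percent of a gene in each transcript, which the authors deposited, was recomputed from TPM.

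Of 43346 annotated genes, 42462 received symbols by gene ID from GENCODE M21, which also gave coordinates (GRCm38), exons and transcript sequences. Residue counts were computed from these transcripts. The libraries held 39182457 and 37432977 counts on annotated genes, and precision falls with the count of a gene.

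Levels are the mean and SD of the 2 libraries. Log2 ratios between genes used log2(TPM + 0.1). Log2 ratios between replicates used expected counts plus 0.5 with edgeR 4.0.16 TMM factors over genes whose mean count reached 10. DESeq2 1.42.0 size factors were an alternative, in R 4.3.3. Only the scaling factors and the counting intervals used rounded expected counts. Counting intervals are exact binomial (Clopper-Pearson) at 95% and, as does the limit of 3 counts, cover only counting error. The remaining steps ran in Python 3.11.15 (scipy 1.17.1, Biopython 1.88, pandas 2.3.3, numpy 2.4.6, matplotlib 3.10.9). Counts of 16020 genes were simulated for replicate 2 over replicate 1, with log2 ratios planted in a small part of them. In those genes, true log2 ratios of −2, −1, 1 and 2 gave medians of −2.03, −1.00, 1.00 and 1.96. The simulated depths were set and differ from those of the libraries, so the simulation checks the calculation only.

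Named genes were all 9 variants, the 3 highest of each of 7 lists and of the replication-dependent H3 and H2A genes, and pseudogenes and antisense genes named after a variant. Gm8203, Tmcc1, Aifm2 and further list members were chosen after their values were seen. The members and lists were chosen with earlier results of these data known. Spt2 had no entry under that symbol. Alternatives covered the TPM column, counts, pseudocounts, filters, scaling and each replicate alone.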

Additional observations from a re-analysis of the deposited data

How the results depend on the processing

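Apart from the replicates taken alone, 34 of 46 alternatives left a result unchanged. A ratio between genes or a share was unchanged if it stayed within the spread between replicates. The count of variants above 1 TPM was unchanged within 1.5 times. The median ratio between replicates had to stay within the counting interval of the median gene. The count past 1.5-fold had to be equal. In expected counts, which carry no length correction, the log2 ratio of H3f3b over H3f3a was −0.57, that of H2afz over H2afv 4.20 and that of H2afy over H2afy2 3.82. In expected counts the variant share was 95.4% for H3 and 50.4% for H2A. With a pseudocount of 1, the log2 ratio of H2afy over H2afy2 was 3.91. Alternatives added after the data were seen moved 3 values. They were the H3f3b ratio at −1.61 with the H3f3a copies added, the H2afz ratio at 5.45 over full-length coding transcripts and the H2A share at 79.1% without Hist1h2ap.

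Each replicate alone gives the end points of the SD and so is no test of stability. The H3f3b ratio ranged from −1.52 to −1.47, the H2afz ratio from 3.78 to 4.01, the H2afy ratio from 4.08 to 4.13, the macroH2A1.1 share from 5.64% to 8.23%, the H3 share from 86.0% to 91.3% and the H2A share from 25.1% to 29.4%. All 9 variants exceeded 1 TPM in each replicate alone, and 8 exceeded 10 TPM in both. The median log2 ratio between replicates was −0.71 with spike-in counts and reversed to 0.084 with TPM. With spike-in counts 8 variants were past 1.5-fold, as were 60.2% of all genes, because that scaling shifts all genes together. A ratio between replicates has no value with a replicate left out. No paired analysis was possible because the series has 1 group. Depth limits the minor H2afy transcripts, such as H2afy-206 with 26.2 and 10.1 counts, and for the macroH2A1.1 transcript the posterior SD of 39.7 and 50.7 counts, from dividing reads among transcripts, adds to the counting error.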
